A study of Mus musculus with 10 samples.

Results

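The genes described here encode the enzymes and carriers of fatty acid oxidation and of ketone body metabolism, measured in whole kidneys of 3-month-old mice. They were chosen by symbol from a list of 45 genes, of which 44 were in the table of 13837 genes and *Pdk4* was not analysed here. By compartment, 23 members act in mitochondria, 14 act in peroxisomes and 7 act elsewhere in the cell or in more than 1 place. All 44 passed the filter on low values, with means over all mice from 91.6 to 37398 normalized counts. The groups were 5 *Rragc* +/+ mice and 5 *Rragc* S74N/+ mice. The latter carry 1 edited *Rragc* allele in every tissue, made by genome editing on the C57BL/6 background. RagC is a GTPase that recruits the kinase complex mTORC1 to lysosomes when nutrients are available, and the S74N change locks it in a form that signals nutrient sufficiency. The comparison asks how fatty acid oxidation genes stand in young kidneys that carry this change, and whether mitochondrial and peroxisomal members differ in that.

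Kidney proximal tubule cells burn fatty acids as their main fuel. Long-chain fatty acids are activated to acyl-CoA, passed into mitochondria by the carnitine shuttle and shortened there in repeated cycles of beta-oxidation. Peroxisomes shorten very long-chain, branched and dicarboxylic acids, through enzymes of their own, and hand the products on. The nuclear receptor PPARα, bound to DNA with RXR, is the best known activator of genes of both pathways. Ketone bodies are made from acetyl-CoA mainly in liver, and the kidney is among the tissues that take them up and burn them.

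Reads on the genes in the table, recovered from the normalized counts, numbered 6501552 to 7856363 in +/+ mice and 6872310 to 7996087 in S74N/+ mice. There was 1 library per mouse, and reads outside these genes are not counted. Reads were made from the 3′ end of each transcript, so transcript length has little weight in a count. Levels of different genes can still differ for other reasons, such as reads lost between close copies, so rankings by level are approximate. Reads from the 3′ end do not cover the edited codon in exon 1, so the values do not check the genotype. *Rragc* itself did not pass between genotypes (limma, adjusted p = 0.0678). Proximal tubule markers were present, with *Slc13a3* and *Slc22a6* higher and *Slc5a2* and *Slc5a12* lower in S74N/+ mice among 12 tested. The summed thick ascending limb markers ranged from 29060 to 38407 in +/+ and from 12476 to 21421 in S74N/+ mice. Of these 4 markers, *Umod* and *Egf* were lower and *Cldn16* was higher (limma log2 fold change 0.82, adjusted p = 0.0028). *Slc12a1* did not pass (log2 fold change -0.22, adjusted p = 0.438). The summed distal convoluted tubule markers ranged from 2676 to 3180 in +/+ and from 978 to 1327 in S74N/+ mice. In bulk kidney, fewer cells of a type and less RNA per cell cannot be told apart, and the part of these markers in the results was not tested. Of the 6 adipocyte markers only *Cfd* was in the table, and it read 3.65, 27.6, 3.4, 8.58 and 52.3 in +/+ replicates 1 to 5 and 807, 6.5, 0, 21.7 and 3504 in S74N/+ replicates 1 to 5. *Fabp4*, a lipid chaperone of adipocytes and capillaries, was also highest in S74N/+ replicates 1 and 5, at 604 and 871, against 94.6 to 217 in the other 8 mice. Where a call named below was lost without these 2 mice, that is said beside it.

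Across the 44 members, 11 passed the threshold between genotypes (limma, adjusted p below 0.05 over all 13197 genes tested), 9 higher and 2 lower in S74N/+ kidneys. That is 25% of the members, where 3.69% of all genes tested passed, 1.67% higher and 2.02% lower. The members that rose were *Vnn1*, *Acaa1b*, *Acot1*, *Cpt2*, *Decr1*, *Acadm*, *Eci1*, *Acox2* and *Eci3*, and those that fell were *Oxct1* and *Acsl1*. The largest rise was 1.77-fold and the largest fall was to 0.657 of the +/+ level. The median log2 fold change was 0.16 over members, with 32 positive and 12 negative, and 0.00046 over all genes tested, of which 50.1% were positive. Values of the genotypes did not overlap for 8 members, where 5.0% of all genes tested did not overlap.

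**Figure D1:**
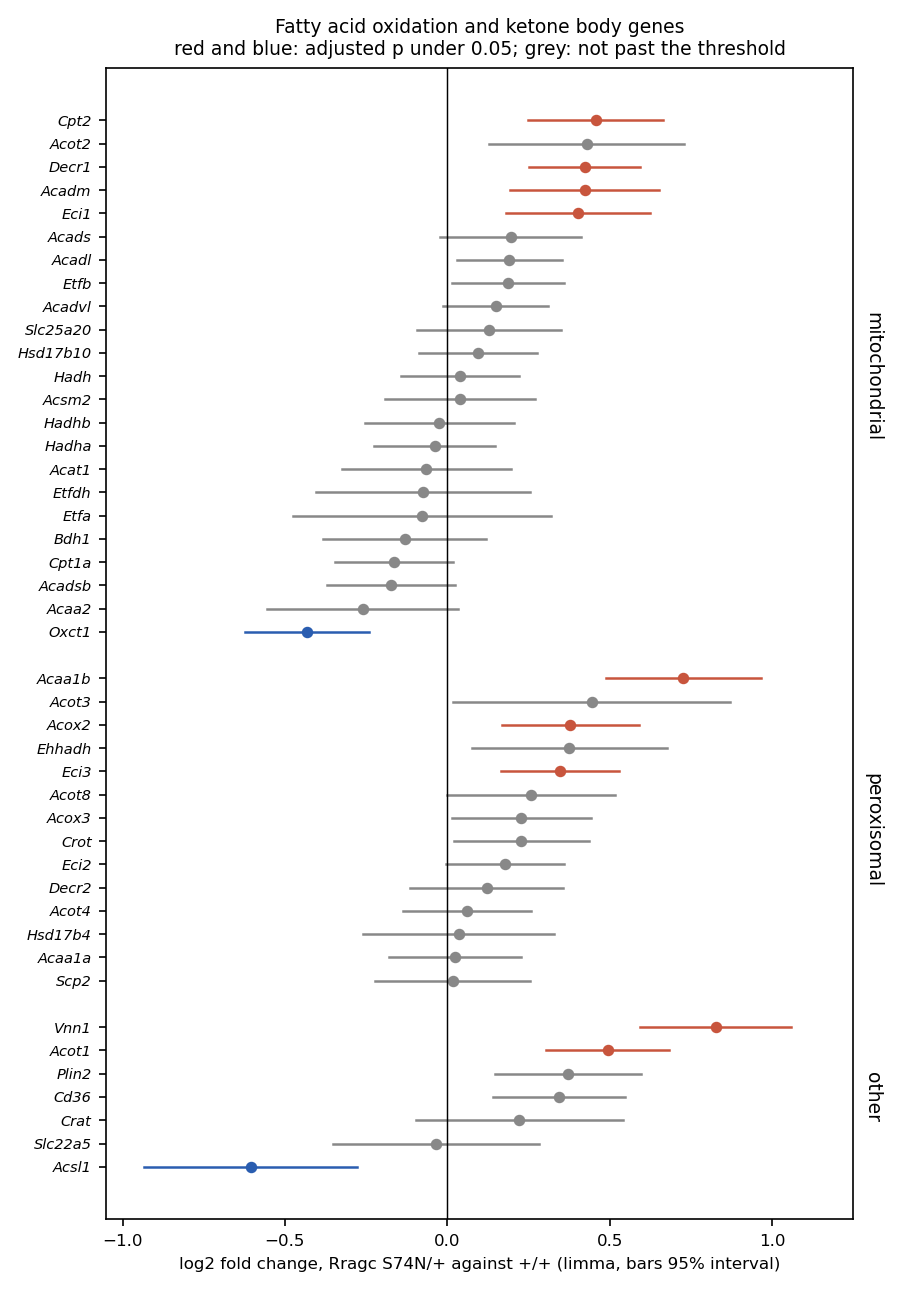
Log2 fold change of each of the 44 members, S74N/+ against +/+ (points), with its 95% interval (bars), grouped as mitochondrial, peroxisomal and other; red and blue mark the 9 members that rose and the 2 that fell, and grey those not past the threshold. All 14 peroxisomal estimates lie right of 0, while the mitochondrial ones lie on both sides.

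By compartment, the 14 peroxisomal members all had a positive estimate, with a median log2 fold change of 0.23 and a range from 0.016 to 0.73, and 3 passed the threshold. The 23 mitochondrial members split into 13 positive and 10 negative estimates, with a median of 0.039 and a range from -0.43 to 0.46, and 5 passed, 4 higher and 1 lower. Per mouse, the median over peroxisomal members of the log2 difference from the +/+ mean was 0.15 to 0.33 in S74N/+ and -0.073 to 0.038 in +/+ mice. The same median over mitochondrial members was 0.067 to 0.14 in S74N/+ and -0.076 to 0.049 in +/+ mice. The peroxisomal median stood above the mitochondrial one by 0.15 ± 0.070 (SD, n = 5) in S74N/+ mice, from 0.071 to 0.25, and by 0.0037 ± 0.020 in +/+ mice, from -0.011 to 0.038. These medians describe lists chosen with earlier results known and carry no test. The share of members called was close in both compartments, 21.7% of mitochondrial and 21.4% of peroxisomal members.

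The distance between compartments depended on the genes and mice counted. The peroxisomal median minus the mitochondrial median of the log2 fold changes was 0.19, and it was 0.096 without the 2 S74N/+ mice with the highest *Cfd* and 0.081 when only core beta-oxidation enzymes of each compartment were counted. What part adipocyte RNA had in it was not tested. The peroxisomal median was positive in all 27 alternatives, from 0.16 to 0.29. The mitochondrial median was positive in 26 of them and turned to -0.022 under quantile normalization. Summed normalized counts gave the same order, since the peroxisomal members summed to 11515 to 11745 in +/+ and 14023 to 15391 in S74N/+ mice, whereas the mitochondrial members summed to 73929 to 78489 and 70713 to 88482. Without *Acaa1b*, its most abundant member, the peroxisomal sum was 8611 to 9286 in +/+ and 9295 to 10969 in S74N/+ mice, which is separated by a narrow gap. Taken over all genes, the 44 members held 1.30% ± 0.040 of the reads in +/+ and 1.37% ± 0.087 in S74N/+ mice (SD, n = 5).

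**Figure D2:**
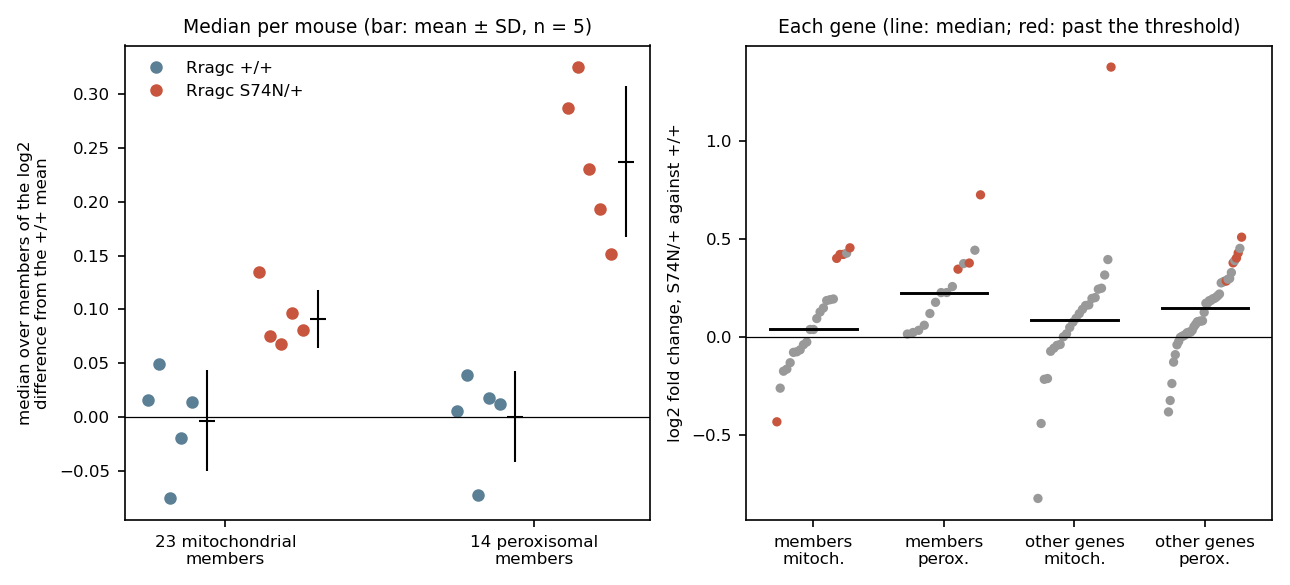
Left, the median over 23 mitochondrial or 14 peroxisomal members of the log2 difference from the +/+ mean, 1 point per mouse, with mean ± SD (n = 5) beside the points; right, the log2 fold change of each gene in 4 lists, with a line at the median and red for genes past the threshold. S74N/+ mice lie at 0.15 to 0.33 for peroxisomal and 0.067 to 0.14 for mitochondrial members, and the medians on the right are 0.039, 0.23, 0.086 and 0.15.

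Among the 10 peroxisomal beta-oxidation enzymes, all estimates were positive and *Acaa1b*, *Acox2* and *Eci3* passed (30%, where 3.69% of all genes passed). *Acaa1b* encodes the thiolase B that cleaves 3-ketoacyl-CoA in the last step of the peroxisomal cycle. Its normalized counts were 2817, 2313, 2904, 2735 and 2769 in the 5 +/+ mice and 5013, 4009, 4317, 3540 and 5794 in the 5 S74N/+ mice. Every S74N/+ mouse stood above every +/+ mouse, and replicates 1 and 5, the mice with the highest *Cfd*, were the highest. The means were 2708 ± 229 in +/+ and 4535 ± 884 in S74N/+ mice. The rise in the fit was 1.65-fold (log2 fold change 0.73 ± 0.11 (SE), adjusted p = 0.000818). The gene passed in all 24 alternatives, the fit without those 2 mice included. The sister gene *Acaa1a*, which encodes thiolase A of the same step, read 549, 537, 610.1, 623 and 619 in +/+ and 562, 531, 748, 575 and 586 in S74N/+ mice. Its groups overlapped throughout, with a log2 fold change of 0.024 (95% interval -0.18 to 0.23, adjusted p = 0.946).

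The thiolase genes are close copies, and reads of 1 can be lost or given to the other. In the last 400 bases of the *Acaa1a* transcript, where 3′ reads fall, 127 of 351 windows of 50 bases also occurred in the *Acaa1b* transcript. Aligned over their last 400 bases, the transcripts were identical at 68.7% of positions. The pair together read 3295 ± 257 normalized counts in +/+ (2850 to 3514) and 5135 ± 886 in S74N/+ mice (4116 to 6380), without overlap and with a log2 ratio of 0.64 of the means. *Acaa1b* made up 82.1% of the pair in +/+ and 88.1% in S74N/+ mice. How the difference divides between the copies is therefore less certain than their sum. The 200 bases upstream of each start are shown because the copies, so alike at the 3′ end, differ here; they come from RefSeq on GRCm38.p6, a build other than that of the counts, and are read along the gene's own strand.
Acaa1a (chr9:119341094-119341293, plus strand): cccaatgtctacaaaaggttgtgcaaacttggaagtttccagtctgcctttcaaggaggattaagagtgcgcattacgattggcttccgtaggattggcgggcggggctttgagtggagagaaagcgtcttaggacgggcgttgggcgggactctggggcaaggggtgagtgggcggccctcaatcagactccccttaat
Acaa1b (chr9:119157094-119157293, minus strand): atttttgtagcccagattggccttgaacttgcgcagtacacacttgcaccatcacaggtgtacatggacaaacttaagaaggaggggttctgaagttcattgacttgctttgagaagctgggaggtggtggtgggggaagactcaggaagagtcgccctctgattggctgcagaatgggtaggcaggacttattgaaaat
A global alignment gave 49.1% identical positions, with 55% G and C upstream of *Acaa1a* and 48.5% upstream of *Acaa1b*.

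*Acox2*, a peroxisomal acyl-CoA oxidase that acts on branched chains and bile acid precursors, read 663, 849, 676, 649.6 and 675 in +/+ and 926, 975, 1016, 915 and 739 in S74N/+ mice. The groups overlapped because +/+ replicate 2 was high and S74N/+ replicate 5 low, and the rise of 1.30-fold stood just past the threshold (log2 fold change 0.38 ± 0.10 (SE), adjusted p = 0.0424). Of the fits without 1 mouse, *Acox2* passed only without +/+ replicate 2 or S74N/+ replicate 5, and its adjusted p over the 24 alternatives ran from 0.00753 to 0.140, with log2 fold changes from 0.34 to 0.47. *Eci3*, an enoyl-CoA isomerase that moves double bonds so that unsaturated chains can be oxidized, read 1247, 1439, 1059, 1180 and 1211 in +/+ and 1544, 1513, 1739, 1501 and 1484 in S74N/+ mice. The lowest S74N/+ value lay above the highest +/+ value, and the rise was 1.27-fold (log2 fold change 0.35 ± 0.087 (SE), adjusted p = 0.0325). Its call was lost without any 1 of +/+ replicates 3, 4 and 5 or S74N/+ replicates 1, 3 and 4, and without the 2 mice with the highest *Cfd*, with an adjusted p of 0.00762 to 0.125 over the alternatives. *Eci2*, a related isomerase, stood at 641 ± 72.4 and 722 ± 27.5 (log2 fold change 0.18 ± 0.087 (SE), adjusted p = 0.345). Of the 351 windows at the 3′ end of *Eci2*, 15 also occurred in the *Eci3* transcript.

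The other peroxisomal members did not pass. *Ehhadh*, the bifunctional enzyme of the classical peroxisomal cycle, read 73.9, 87.2, 97.5, 67.5 and 75.8 in +/+ and 129, 99.4, 88.3, 93.9 and 113 in S74N/+ mice, with a log2 fold change of 0.38 and an adjusted p of 0.188. *Hsd17b4*, the bifunctional enzyme of the branched-chain route, and *Scp2*, whose product holds a thiolase and a sterol carrier, had log2 fold changes of 0.035 and 0.016. The 95% intervals were -0.26 to 0.33 and -0.22 to 0.25. *Acox3*, a further branched-chain oxidase, had 0.23 and *Decr2*, the peroxisomal dienoyl-CoA reductase, 0.12. The 4 genes for peroxisomal thioesterases and the carnitine acyltransferase *Crot* were all positive, with a median of 0.24, and 0 passed. *Acot3*, a thioesterase that releases free fatty acids from acyl-CoA, read 126, 96, 105, 121 and 119 in +/+ and 203, 176, 125, 86 and 225 in S74N/+ mice, so that S74N/+ replicate 4 was the lowest of all 10 mice while replicates 1 and 5 were the highest. *Acot4* stood at 0.061 and *Acot8* at 0.26. *Crot*, which makes carnitine esters of medium-length chains for export, stood at 0.23 (adjusted p = 0.266); without the 2 mice with the highest *Cfd*, *Crot* and *Acox3* passed, where 2.80% of all genes passed.

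**Figure D3:**
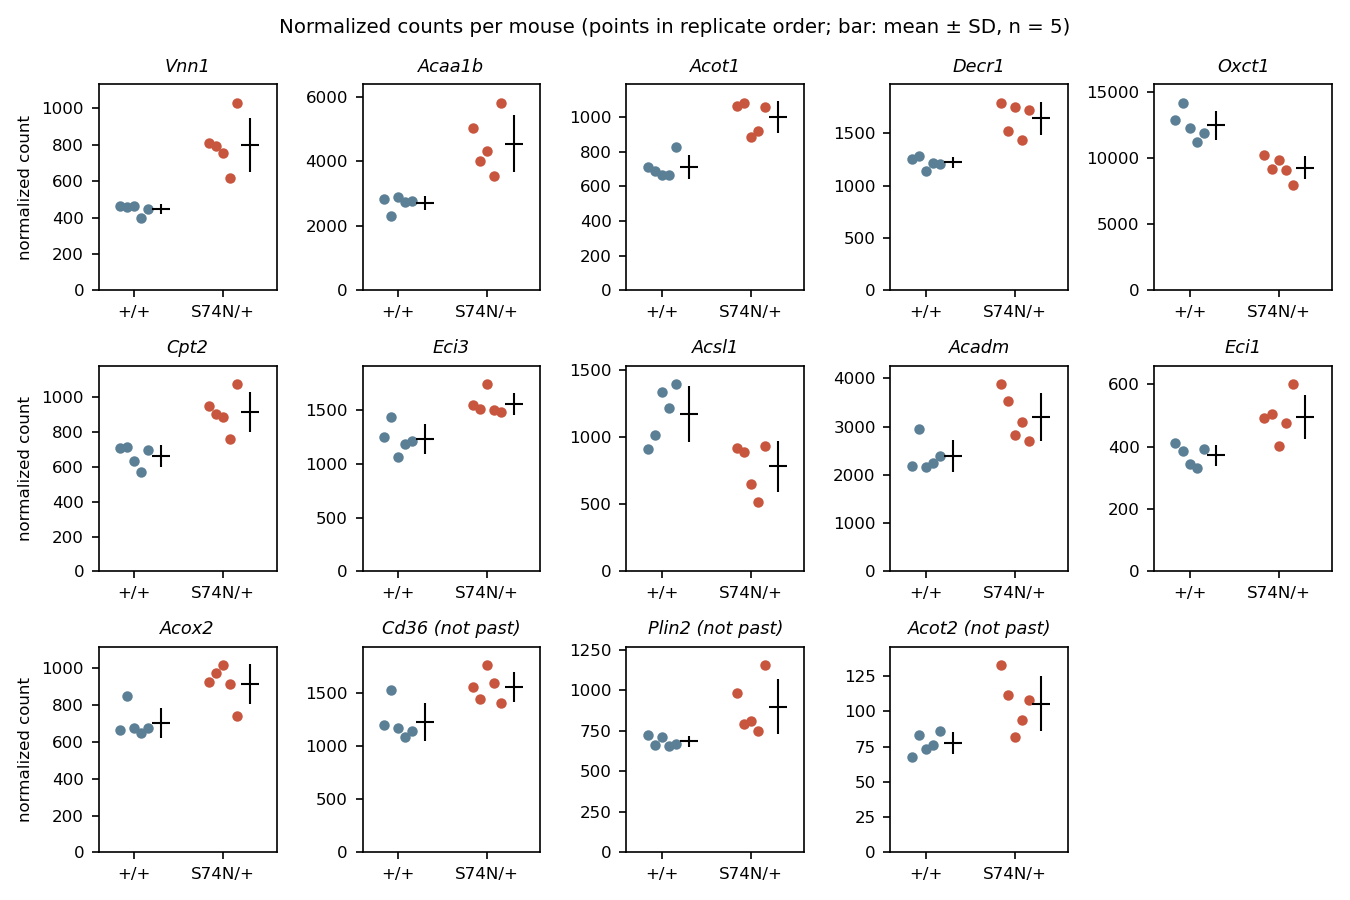
Normalized counts of the 11 members past the threshold and the 3 nearest to it, 1 point per mouse in replicate order, with mean ± SD (n = 5) beside each group; axes start at 0. *Oxct1* and *Acsl1* are lower in S74N/+ mice and the others higher, and S74N/+ replicates 1 and 5 are the highest for *Acaa1b*, *Vnn1*, *Cpt2* and *Plin2*.

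Of the 12 mitochondrial beta-oxidation enzymes, 3 rose, 0 fell and 9 did not pass (25% passed, where 3.69% of all genes did). Their estimates were positive for 8, with a median log2 fold change of 0.12. *Decr1*, the 2,4-dienoyl-CoA reductase that prepares polyunsaturated chains, had normalized counts of 1258, 1281, 1141, 1215 and 1210 in +/+ and 1785, 1516, 1751, 1435 and 1718 in S74N/+ mice. The groups did not overlap and the rise was 1.34-fold, from 1221 ± 53.7 to 1641 ± 156 (log2 fold change 0.42 ± 0.081 (SE), adjusted p = 0.00472). The gene passed in all 24 alternatives. *Eci1*, the mitochondrial enoyl-CoA isomerase, read 411, 388, 344, 331 and 392 in +/+ and 492, 505, 404, 477 and 600.4 in S74N/+ mice, and a single +/+ mouse stood above the lowest S74N/+ mouse. The rise was 1.32-fold (log2 fold change 0.40 ± 0.11 (SE), adjusted p = 0.0415). *Acadm*, the medium-chain acyl-CoA dehydrogenase that starts each cycle on chains of middle length, read 2184, 2951, 2170, 2239 and 2391 in +/+ and 3880, 3536, 2823, 3095 and 2700 in S74N/+ mice. Its groups overlapped through +/+ replicate 2, and the rise was 1.34-fold (log2 fold change 0.42 ± 0.11 (SE), adjusted p = 0.0382). *Decr1* and *Eci1* act on unsaturated chains, as the peroxisomal *Eci3* does. The related peroxisomal genes *Decr2* and *Eci2* did not pass (log2 fold changes 0.12 and 0.18).

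The calls of *Eci1* and *Acadm* depended on single mice, and neither passed without the 2 mice with the highest *Cfd*. *Eci1* passed in 2 of 10 fits without 1 mouse, those without +/+ replicate 1 or S74N/+ replicate 3, and *Acadm* in 3, those without +/+ replicate 2 or S74N/+ replicate 3 or 5. Over the 24 alternatives the adjusted p was 0.0121 to 0.224 for *Eci1* and 0.00577 to 0.143 for *Acadm*, and the log2 fold change 0.31 to 0.47 and 0.35 to 0.50. The dehydrogenases for other chain lengths did not pass. *Acadl*, for long chains, stood at 0.19 (adjusted p = 0.225), *Acadvl*, for very long chains, at 0.15 (adjusted p = 0.378), and *Acads*, for short chains, at 0.19 (adjusted p = 0.399). *Acadsb*, for short branched chains, was at -0.17, with every S74N/+ mouse below the +/+ mean.

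The enzymes of the later steps of the mitochondrial cycle did not pass. *Hadha* and *Hadhb*, the subunits of the trifunctional protein for long chains, had log2 fold changes of -0.039 (95% interval -0.22 to 0.15) and -0.025 (-0.25 to 0.20). *Hadh*, the dehydrogenase for shorter chains, was at 0.039 (-0.14 to 0.22) and *Hsd17b10* at 0.095 (-0.087 to 0.28). *Acaa2*, the mitochondrial thiolase, read 1891, 1750, 1552, 1734 and 1554 in +/+ and 1600, 1441, 1077, 1103 and 2045 in S74N/+ mice. S74N/+ replicate 5 was the highest of all 10 mice and replicates 3 and 4 the lowest, and the estimate was -0.26 (adjusted p = 0.403). It passed, lower, only in the fit without S74N/+ replicates 1 and 5 among the 24 alternatives. It thus stood opposite in sign to the peroxisomal thiolase *Acaa1b*, which was called higher in that fit too.

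The electron transfer flavoprotein passes electrons from the dehydrogenases to the respiratory chain, and 0 of its 3 genes passed. *Etfb*, its beta subunit and among the 4 most abundant members, read 4298, 4179, 3946, 4031 and 3962 in +/+ and 4627, 4147, 5133, 4245 and 5175 in S74N/+ mice, with overlap (log2 fold change 0.19 ± 0.082 (SE), adjusted p = 0.27). *Etfa*, the alpha subunit, stood at 447 ± 82.2 and 437 ± 145, and *Etfdh*, the oxidoreductase that accepts the electrons, at 207 ± 29.1 and 200.4 ± 46.2. The spread within the S74N/+ group was wide for both, with replicate 3 the lowest of the 10 mice at 264 for *Etfa* and 125 for *Etfdh*.

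In the carnitine shuttle, 1 of 5 genes rose and 0 fell (20%, where 3.69% of all genes passed). *Cpt2*, the inner-membrane acyltransferase that returns the acyl group to CoA in the matrix, read 707, 716, 634, 568 and 699 in +/+ and 951, 904, 885, 760.1 and 1074 in S74N/+ mice. The groups did not overlap, and S74N/+ replicates 1 and 5, the mice with the highest *Cfd*, were the highest. The means were 665 ± 63.1 in +/+ and 915 ± 114 in S74N/+ mice. The rise in the fit was 1.37-fold (log2 fold change 0.46 ± 0.098 (SE), adjusted p = 0.0115). It passed in all 10 fits without 1 mouse, and without both mice with the highest *Cfd* its adjusted p was 0.0930, within 0.000906 to 0.0930 over the alternatives. *Cpt1a*, the outer-membrane enzyme that controls entry, stood at 1189 ± 92.1 and 1063 ± 103 (log2 fold change -0.16 ± 0.086 (SE), adjusted p = 0.394). Its 95% interval of -0.34 to 0.018 lay below the whole interval of *Cpt2*, 0.25 to 0.66. The translocase *Slc25a20*, the carnitine acetyltransferase *Crat* and the plasma membrane carnitine carrier *Slc22a5* had log2 fold changes of 0.13, 0.22 and -0.035, with adjusted p from 0.548 to 0.949.

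All 3 ketone body enzymes had negative estimates, and *Oxct1* passed. *Oxct1* encodes the transferase that activates acetoacetate to acetoacetyl-CoA, the committed step of burning ketone bodies, and is the second most abundant member. Its normalized counts were 12871, 14146, 12293, 11214 and 11929 in +/+ and 10236, 9164, 9843, 9088 and 7960 in S74N/+ mice. Every S74N/+ mouse lay below every +/+ mouse, and the mean fell from 12490 ± 1103 to 9258 ± 869, or to 0.741 of the +/+ level (log2 fold change -0.43 ± 0.09 (SE), adjusted p = 0.00916). The call held in 23 of 24 alternatives, with log2 fold changes from -0.47 to -0.38, and was missed in limma without a trend (adjusted p = 0.0542, the highest of 9.7e-05 to 0.0542). *Bdh1*, which interconverts both main ketone bodies, read 1294, 1279, 1095, 1092 and 1218 in +/+ and 995, 1174, 1300, 1281 and 788 in S74N/+ mice, with S74N/+ replicates 1 and 5 the lowest of the 10 mice (log2 fold change -0.13 ± 0.12 (SE), adjusted p = 0.68). *Acat1*, which splits acetoacetyl-CoA, read 2716, 2588, 2428, 3120 and 3096 in +/+ and 2829, 3137, 2795, 2902 and 1828 in S74N/+ mice, and S74N/+ replicate 5 alone stood far below the rest (log2 fold change -0.065 ± 0.12 (SE), adjusted p = 0.862).

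The most abundant member was *Acsm2*, a mitochondrial synthetase that activates medium-chain and aromatic acids in proximal tubule cells. It read 37088, 36294, 38590, 35008 and 36517 in +/+ and 34439, 34202, 49231, 39003 and 33608 in S74N/+ mice and made up 35.4% to 45.3% of member reads in single mice. S74N/+ replicate 3 was the highest and replicates 1, 2 and 5 the lowest, and the estimate was 0.039 (95% interval -0.19 to 0.27, adjusted p = 0.914). Sums over mitochondrial members therefore mostly follow *Acsm2* and *Oxct1*. *Acot2*, a thioesterase of the mitochondrial matrix, read 67.6, 83.6, 73.7, 76.1 and 86.5 in +/+ and 133, 111, 82, 93.9 and 108 in S74N/+ mice, an estimate of 1.35-fold that did not pass (log2 fold change 0.43 ± 0.14 (SE), adjusted p = 0.123).

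**Figure D4:**
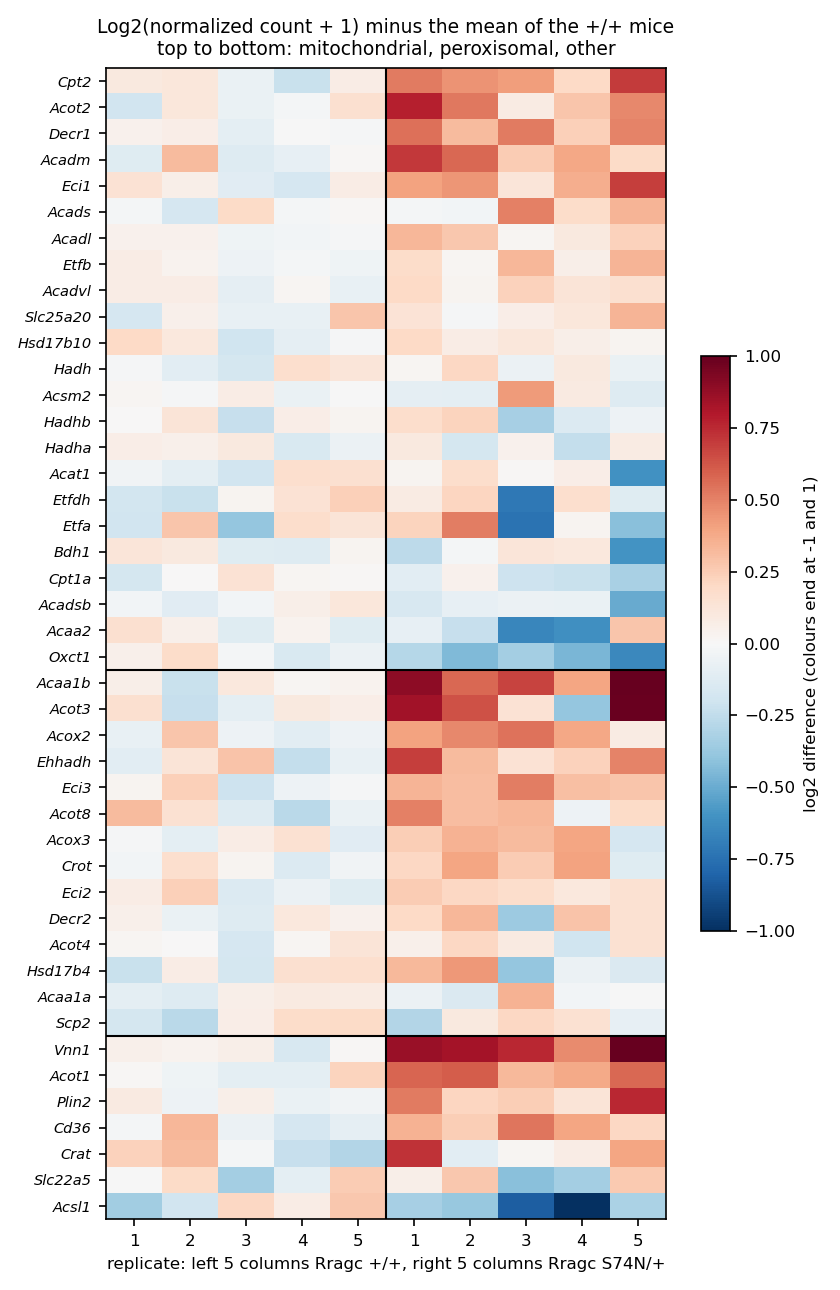
Log2(normalized count + 1) of each member in each mouse minus the mean of the 5 +/+ mice, with colours ending at -1 and 1; rows are grouped as mitochondrial, peroxisomal and other and ordered by log2 fold change. *Acaa1b* and *Vnn1* are red in all 5 S74N/+ mice and *Oxct1* is blue in all 5, while *Etfa*, *Etfdh*, *Acaa2* and *Acat1* change colour between S74N/+ mice.

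Among the members placed in neither compartment, *Vnn1*, *Acot1* and *Acsl1* passed. *Vnn1* encodes pantetheinase, which recycles pantothenate, the vitamin part of coenzyme A. It read 461, 456, 464, 399 and 447 in +/+ and 810.0, 793, 752, 618 and 1028 in S74N/+ mice, without overlap, and S74N/+ replicates 1 and 5 were the highest. Its rise in the fit, 1.77-fold, was the largest of the members (log2 fold change 0.83 ± 0.11 (SE), adjusted p = 0.000166) and passed in all 24 alternatives. The means were 445 ± 26.8 in +/+ and 800.3 ± 148 in S74N/+ mice. *Acot1*, the cytosolic thioesterase, read 714, 687, 663, 664 and 829 in +/+ and 1062, 1080, 886, 921 and 1057 in S74N/+ mice, again without overlap, and rose 1.41-fold (log2 fold change 0.49 ± 0.089 (SE), adjusted p = 0.00301), in all 24 alternatives. Of the 351 windows at the 3′ end of *Acot1*, 0 occurred in the transcript of its mitochondrial relative *Acot2*. The sums of both genes were 789 ± 73.2 in +/+ and 1107 ± 107 normalized counts in S74N/+ mice. *Acsl1*, the long-chain acyl-CoA synthetase that commits fatty acids to metabolism, moved the other way, with 907, 1011, 1334, 1219 and 1392 in +/+ and 917, 888, 653, 513 and 931 in S74N/+ mice. All 5 S74N/+ mice lay below the +/+ mean, although +/+ replicate 1 lay below S74N/+ replicates 1 and 5. The level fell to 0.657 of +/+ (log2 fold change -0.61 ± 0.16 (SE), adjusted p = 0.0382).

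*Acsl1* differed between the runs of library codes, which are only what the sample names show: +/+ replicates 1 and 2 and S74N/+ replicate 1 form a first run and the other 7 mice a second. In the first run it read 907 and 1011 against 917, and in the second 1219 to 1392 against 513 to 931. The first run has 1 S74N/+ mouse and gives no test of its own. In the second run alone 10 members passed, *Acsl1* among them, where 2.62% of all genes passed. *Eci1* (adjusted p = 0.0795) and *Acox2* (adjusted p = 0.0552) were lost there and *Cd36* was gained (adjusted p = 0.0262, of 0.00943 to 0.171 over its alternatives). The *Acsl1* call was also lost without +/+ replicate 3, 4 or 5 or S74N/+ replicate 3 or 4, with log2 fold changes from -0.85 to -0.46 over the alternatives and adjusted p up to 0.149.

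*Cd36*, a fatty acid carrier of the plasma membrane, and *Plin2*, the coat protein of small lipid droplets, came next to the threshold. *Cd36* read 1197, 1525, 1169, 1084 and 1142 in +/+ and 1548, 1437, 1756, 1593 and 1401 in S74N/+ mice, and overlapped only through +/+ replicate 2 (log2 fold change 0.34 ± 0.096 (SE), adjusted p = 0.0558). *Plin2* read 728, 663, 713, 655 and 669 in +/+ and 983, 793, 813, 747 and 1155 in S74N/+ mice, without overlap (log2 fold change 0.37 ± 0.11 (SE), adjusted p = 0.064). Adipocytes also express both genes, and S74N/+ replicates 1 and 5, highest for *Cfd*, were highest for *Plin2*, though not for *Cd36*. Without them the log2 fold change of *Plin2* was 0.19 (adjusted p = 0.389) and that of *Cd36* 0.39 (adjusted p = 0.0817). With the run of library codes as a covariate, a fit in which 6.30% of all genes passed, *Cd36* (adjusted p = 0.0176), *Plin2* (adjusted p = 0.0362) and *Acot8* passed beside the 11 members. Over the 24 alternatives *Cd36* passed in 6, with adjusted p from 0.00943 to 0.171, and *Plin2* in 3, from 0.0264 to 0.389. Without the 2 mice with the highest *Cfd*, 10 members passed: *Acaa1b*, *Acaa2*, *Acot1*, *Acox2*, *Acox3*, *Acsl1*, *Crot*, *Decr1*, *Oxct1* and *Vnn1*.

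The members do not hold every gene of the pathway, so 108 further genes of fatty acid handling were tested, of 120 listed. Of these 16 passed, 14.8% against 3.69% of all genes tested, 12 higher and 4 lower, with 79 positive and 29 negative estimates and a median log2 fold change of 0.099. Of 44 genes listed as peroxisomal 5 were higher and 0 lower (11.4%), with a median of 0.15. Among these 5 are *Acot12*, whose product is a cytosolic enzyme, and *Ech1*, whose product is also found in mitochondria. Of 24 mitochondrial genes 1 was higher and 0 lower, which at 4.17% is near the share of all genes, with a median of 0.086. The difference between these medians was not tested. The list was chosen with earlier results of these data known.

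*Cat*, the catalase that removes hydrogen peroxide made by peroxisomal oxidases, rose from 4559 ± 425 to 6134 ± 474 without overlap (log2 fold change 0.43 ± 0.086 (SE), adjusted p = 0.00636). *Pxmp4*, a peroxisomal membrane protein, rose 1.42-fold (log2 fold change 0.51 ± 0.079 (SE), adjusted p = 0.000756), *Acot12*, an acetyl-CoA thioesterase, 1.32-fold (adjusted p = 0.0159) and *Ech1*, a dienoyl-CoA isomerase, 1.22-fold (adjusted p = 0.0424). Of the 10 fits without 1 mouse, *Cat*, *Pxmp4* and *Fabp3* passed in all, *Acot12* in 9, *Me1* in 3, *Ech1* and *Plin3* in 2 and *Acsl5* in 1. Without the 2 mice with the highest *Cfd*, *Ech1* (adjusted p = 0.106, of 0.00487 to 0.141 over the alternatives) did not pass. *Pxmp4* was the only 1 past the threshold of 18 listed genes for peroxisome biogenesis or peroxisomal membrane proteins (5.56%, where 3.69% of all genes passed). None of the *Pex* genes among them passed (smallest adjusted p = 0.0758, *Pex16*).

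Of 20 genes of fatty acid delivery, activation and droplets, 2 rose and 2 fell (20%, where 3.69% of all genes passed). *Fabp3*, a cytosolic fatty acid chaperone, fell from 518 ± 43.8 to 186 ± 68.1 without overlap (log2 fold change -1.56 ± 0.21 (SE), adjusted p = 0.000176), and *Plin3*, a droplet coat protein, fell to 0.759 of +/+ (adjusted p = 0.0397). *Acsl5*, a synthetase related to *Acsl1*, rose 1.28-fold (adjusted p = 0.048) where *Acsl1* fell, and the droplet protein *Plin5* rose from 16.5 ± 3.52 to 33.2 ± 10.6 (adjusted p = 0.0485; named after its values were seen). Outside these 20 genes, *Me1*, which makes NADPH for lipid synthesis, rose 1.24-fold (adjusted p = 0.0346). Without the 2 mice with the highest *Cfd*, *Acsl5* (adjusted p = 0.0948, of 0.0159 to 0.115 over the alternatives), *Me1* (adjusted p = 0.151, of 0.00518 to 0.151) and *Plin5* (adjusted p = 0.324, of 0.0158 to 0.324) did not pass.

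Of 12 nuclear receptors and coactivators, 1 fell and 0 rose (8.33%, where 3.69% of all genes passed). *Ppara*, which encodes PPARα, stood at 272 ± 95.4 and 254 ± 51.9 (log2 fold change -0.051 ± 0.20 (SE), adjusted p = 0.943), while *Ppargc1a*, a coactivator of mitochondrial gene programs, fell from 629 ± 90.6 to 346 ± 20.9 (log2 fold change -0.85 ± 0.10 (SE), adjusted p = 4.64e-05). Fatty acid omega-hydroxylase genes, whose protein products make the dicarboxylic acids that peroxisomes shorten, went both ways: *Cyp4a14* had a log2 fold change of 3.23, *Cyp4a10* of 1.08, *Cyp4a31* of 0.64 and *Cyp4a12b* of -1.17, with adjusted p up to 0.00274. *Cyp4a12a*, named after its values were seen, had a log2 fold change of 1.55 (adjusted p = 0.129), with +/+ replicate 3 at 7232 against 544 to 1236 in the other +/+ mice. Whether genes of this family shared reads was not measured.

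PPARα and RXR bind 2 copies of the half-site AGGTCA with 1 base between them, and the RefSeq promoter windows (GRCm38.p6, 250 bases before to 50 after the start) were searched for it on both strands. With at most 2 mismatches in both half-sites together, it was found in 6 of the 38 members that matched a window, 15.8% (exact binomial interval 6.02% to 31.3%, counting error only), and in 4.40% of the 27018 genes with a window. With at most 1 mismatch it was found in 0 members and 0.644% of genes, and with at most 3 in 31.6% and 27.3%. The matches are printed because they let the members with and without a difference be set side by side; capitals mark the match, which on the reverse strand reads as TGACCT.
Acox2 (chr14:8258810-8258838, minus strand): gctgtcccAGGACAGAGGTGAgtcaagag
Cd36 (chr5:17835939-17835967, minus strand): tggttctcTGGCCTCTGACTTacttggat
Plin2 (chr4:86670264-86670292, minus strand): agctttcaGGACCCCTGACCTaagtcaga
Acot4 (chr12:84038358-84038386, plus strand): ccgaagcaTGACCTTTGGCCGgtctgtgc
Etfa (chr9:55512300-55512328, minus strand): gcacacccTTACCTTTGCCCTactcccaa
Slc25a20 (chr9:108662134-108662162, plus strand): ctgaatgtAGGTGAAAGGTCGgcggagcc
Of these 6, *Acox2* passed the threshold, *Cd36* and *Plin2* stood next to it, and *Acot4*, *Etfa* and *Slc25a20* had log2 fold changes of 0.061, -0.078 and 0.13. The windows of *Acaa1b* and *Acot1* held no such match, and *Vnn1* and *Decr1* were among the 6 members without a window. A match in letters is a description of the sequence and was not tested as a binding site.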

How the data were processed

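Whole-kidney RNA of 10 mice was analysed, 5 per genotype as the labels give it. The authors made QuantSeq 3′ libraries, aligned reads to GRCm39 with TopHat2 2.0.10 and Bowtie 1.0.0, used HTSeq 0.6.1 to count reads on the strand of each gene, and normalized with DESeq2, per the methods and the submitters' processing notes. The deposited signal is a normalized count: reads of a gene over the size factor of its library. Each value gave whole reads to within 0.01. All 10 value columns were used.

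Values were tested as log2(value + 1) in limma 3.58.1 (R 4.3.3; lmFit, eBayes with trend, two-sided) over the 13197 genes with at least 10 normalized counts in 5 or more mice. The Benjamini-Hochberg adjusted p had to be below 0.05. Fold changes are on that scale, and each SE is from limma. The test was run on simulated data first. Alternatives were pseudocounts of 0.5 and 5, no filter, a minimum mean of 50, TMM factors, quantile normalization, scaling to total reads, limma without trend or with robust variances, edgeR 4.0.16 and DESeq2 1.42.0 on the recovered reads, the run of library codes as a covariate or the second run alone, leaving out each mouse, and, for medians, other ways to count members. Leaving out the 2 mice with the highest *Cfd* was added after the data had been seen.

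Full values were given for members past the threshold, the 3 next to it and the 4 most abundant, and from the further genes for those past it, at most 15, plus *Ppara* and *Ppargc1a*. Some further genes covered by this rule are not reported here. Members and lists were chosen with earlier results of these data known. Sequences came from RefSeq tables on GRCm38.p6, in which 38 members matched a promoter window, and no coordinates were converted. Transcript ends were taken from the GENCODE annotation of that older build. Depth of 6501552 to 7996087 reads on the genes in the table per mouse bounds the precision of low values.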

Additional observations from a re-analysis of the deposited data

Results flagged for a closer look

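Each member's 5 mice per genotype were searched for a mouse whose gap to its nearest neighbour, divided by the whole range, exceeded 0.71, which chance gives in about 1 of 20 groups. Of 88 groups, 9 held such a mouse. In +/+ mice, replicate 2 stood apart at 2951 normalized counts of *Acadm* (others 2170 to 2391), 2313 of *Acaa1b* (others 2735 to 2904), 849 of *Acox2* (others 650 to 676) and 1525 of *Cd36* (others 1084 to 1197), and replicate 4 at 399 of *Vnn1* (others 447 to 464). In S74N/+ mice, replicate 5 stood apart at 633 of *Acadsb* (others 805 to 864) and 1828 of *Acat1* (others 2795 to 3137), and replicate 3 at 748 of *Acaa1a* (others 531 to 586) and 1739 of *Eci3* (others 1484 to 1544). For *Acadm*, *Acox2* and *Cd36* the +/+ mouse that stood apart was the one whose value overlapped the S74N/+ mice.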

How the results depend on the processing

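Over 24 alternatives, *Vnn1*, *Acaa1b*, *Acot1* and *Decr1* kept their direction and passed in each, *Oxct1* in 23, *Cpt2* in 22, *Acsl1* in 17, *Eci3* in 15, *Acadm* in 14, *Acox2* in 13 and *Eci1* in 12. The count of members past the threshold, 11, was 7 (5 higher) under quantile normalization, 4 (all higher, 0 lower) in limma without trend and 14 with the run covariate (*Acot8*, *Cd36* and *Plin2* added), and with robust variances 1 was lower. All genes called, 487, were 291 without trend and 832 with that covariate. Without 1 mouse, 6 to 12 members passed, 5 to 10 higher and 1 to 2 lower, with 6 without +/+ replicate 3, 4 or 5 (375, 310 and 295 of all genes) and 7 without S74N/+ replicate 1. The cause was not tested. Without 1 mouse the median log2 fold change was 0.027 to 0.087 for mitochondrial and 0.19 to 0.29 for peroxisomal members, and the difference 0.12 to 0.22. Under quantile normalization the medians were -0.022 and 0.16. Without the 2 mice with the highest *Cfd* the mitochondrial median was 0.083 and the difference 0.096, and with core enzymes alone 0.12 and 0.081. *Acsm2* turned negative under quantile normalization (-0.022) and without S74N/+ replicate 3 (-0.057 of -0.057 to 0.080 over fits without 1 mouse). *Ppara* turned positive without +/+ replicate 3 (0.10) or 5 (0.029) or S74N/+ replicate 1 (0.048), of -0.21 to 0.10 over such fits. Motif matches in members, 15.8%, were 0% with at most 1 mismatch and 31.6% with at most 3. No paired analysis was possible because the labels give the mice no numbers shared between genotypes. With 5 mice per group, the smallest member log2 fold change that passed was 0.35, and *Cd36* at 0.34 did not. Size alone did not decide this, since *Acot3* at 0.44, *Acot2* at 0.43, *Ehhadh* at 0.38 and *Plin2* at 0.37 did not pass.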
